A study of Homo sapiens with 16 samples.

Results

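FOXF1 and FOXF2 lie in separate clusters of forkhead genes, and open chromatin was described here across both. The members are all peaks that overlap 1 of a pair of hg19 windows: chr16:86200000-86650000, a stretch of 450 kb holding FOXF1, FOXC2 and FOXL1, and chr6:1200000-1700000, a stretch of 500 kb holding FOXQ1, FOXF2 and FOXC1. Peaks that overlapped between libraries were merged into regions, separately for paired-end and single-end libraries. This gave 123 of 153040 paired-end regions, 63 on chromosome 16 and 60 on chromosome 6, and 92 of 103322 single-end regions, 47 and 45. Of the 123 paired-end regions, 73 overlapped a single-end one. The choice of windows used no measured value, but it was made with earlier results of these data known.

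The cells were IMR-90 ER:Ras, a derivative of IMR-90, an established line of human lung fibroblasts, with an oncogenic Ras switched on through a fused oestrogen receptor domain. In ATAC-seq a transposase inserts adapters into accessible DNA, and peaks mark where insertions pile up. All groups carry the Ras fusion and received an siRNA. The paired-end groups were proliferating cells (Pro, siCtrl without 4-hydroxytamoxifen, 2 libraries), senescent controls (Sen, siCtrl, 100 nM 4-hydroxytamoxifen for 6 days, 4 libraries), senescent cells with siRNA against FOXF1/2 (siFOXF1/2, 2 libraries) and senescent cells with knockdown of JUN-family members (2 libraries). The single-end groups, of 2 libraries each, were senescent controls, senescent cells with siRNA against p300/CBP, and senescent cells with siRNA against p65 (RELA), an NF-kB subunit. Every senescent group had the same 4-hydroxytamoxifen dose and time. GEO lists the Pro samples, too, under the cell type senescent fibroblast, and only titles and treatment set them apart. Titles of the JUN libraries give cJUN and JUND, and the treatment adds JUNB. siRNA lowers messenger RNA, so peaks at FOXF1 or FOXF2 cannot check the knockdown, and its efficiency is not given by peak lists.

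Forkhead proteins bind DNA through a winged-helix domain, and several can bind sites in closed chromatin. FOXF1 and FOXF2 are factors of mesenchyme next to gut and lung epithelium, and FOXF1 is needed for lung vessels. FOXL1 is a mesenchymal gene next to FOXF1, FOXC1 and FOXC2 act in mesoderm, eye and vessel development, and FOXQ1 is best known from epithelia. Upstream of FOXF1 lie the noncoding RNA genes FENDRR and, farther out, LINC01081, and an enhancer domain whose loss is known from a congenital lung disease. In RefSeq order, FENDRR is the neighbour of FOXF1 on that side, while MTHFSD and FOXC2-AS1 lie between FOXF1 and FOXC2. On chromosome 6, FOXF2-DT lies between FOXQ1 and FOXF2, and FOXCUT directly before FOXC1.

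Sequences are shown for the chromosome 6 promoters, since RefSeq promoter entries matched only these 3 of the 6 genes. In the JUN-family knockdown lists FOXQ1 and FOXF2 had no promoter peak and FOXC1 kept one. An equal signal could have gone unlisted at the FOXF2 start and, depending on the scale, at the FOXQ1 start, as given below. A link between sequence and these peaks was not tested. The stretches are the 250 bases before each RefSeq start on the + strand of GRCh38.p14. They lie at chr6:1311848-1312097 for FOXQ1, chr6:1389326-1389575 for FOXF2 and chr6:1609665-1609914 for FOXC1. These starts need not be the hg19 starts used for the peaks. Spacing from FOXF2 differed between the 2 annotations by 84 bp for FOXQ1 and 273 bp for FOXC1. The stretches were not placed on hg19 and may lie outside the promoter regions. Capitals mark matches to the GC box GGGCGG and the CCAAT box CCAAT, on either strand.
FOXQ1: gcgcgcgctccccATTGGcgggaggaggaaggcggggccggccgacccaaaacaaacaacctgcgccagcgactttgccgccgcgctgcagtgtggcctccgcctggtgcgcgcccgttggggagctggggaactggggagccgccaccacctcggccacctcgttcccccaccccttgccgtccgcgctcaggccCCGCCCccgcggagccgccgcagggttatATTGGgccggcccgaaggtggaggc
FOXF2: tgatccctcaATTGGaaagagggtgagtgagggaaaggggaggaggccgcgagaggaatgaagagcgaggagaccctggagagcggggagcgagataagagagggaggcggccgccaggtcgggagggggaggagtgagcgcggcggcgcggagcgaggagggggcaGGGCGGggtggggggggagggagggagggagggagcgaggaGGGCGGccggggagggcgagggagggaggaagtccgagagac
FOXC1: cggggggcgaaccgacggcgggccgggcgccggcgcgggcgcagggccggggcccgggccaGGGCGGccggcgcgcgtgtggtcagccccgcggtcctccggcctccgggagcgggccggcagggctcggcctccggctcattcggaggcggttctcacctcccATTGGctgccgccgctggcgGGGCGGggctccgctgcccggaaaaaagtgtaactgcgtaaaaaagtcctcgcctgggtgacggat
All 3 stretches are rich in CpG, with 29 CpGs in FOXQ1, 20 in FOXF2 and 37 in FOXC1 against a median of 11 over 35116 RefSeq promoters of the same length. The GC box matched 1 time in FOXQ1 and 2 times each in FOXF2 and FOXC1, and 42.6% of all promoters hold it. The CCAAT box matched 2 times in FOXQ1 and 1 time each in the others, and 32.0% of all promoters hold it. No match was found in the 3 stretches for the forkhead motifs TGTTTAC (2.98% of promoters) and TGTTTGC (3.23%), the AP-1 motif TGANTCA (6.57%) or the TATA box TATAAA (10.7%), searched on both strands. None of the marked matches overlapped another.

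Each list was deposited for 1 library, with 60156 to 108298 peaks for paired-end libraries and 17880 to 71155 for single-end ones. The authors' fold and p-value of a peak give back the summit pileup, the number of fragments stacked at the summit. Signal below means this pileup divided by the genome-wide background of the same library, which ranged from 1.74 to 3.08 where reads were paired and from 0.195 to 0.475 where they were single. Where local background was no higher than genome-wide, a peak could be listed from a signal of 4.58 to 6.31 with paired reads and only from 14.7 to 25.7 with single reads, so the layouts were never compared directly. Where local background was raised, the level was higher. Peak names set Pro, Sen replicates 1 and 2 and siFOXF1/2 apart from Sen replicates 3 and 4 and JUN-family knockdown. Whether these sets were prepared apart is not in the labels. Ratios against Sen replicates 1 and 2 alone and against replicates 3 and 4 alone are given in that order after the pooled ones for the promoters. As a check of the cell type, the fibroblast genes COL1A1, COL1A2 and PDGFRB had promoter peaks in all 10 paired-end libraries and COL3A1 in 5. CDH1, PTPRC and CDH5, markers of epithelium, leukocytes and endothelium, had none, and the epithelial gene EPCAM had a low one, of 5.56 to 14.0, in 9. Of the 6 single-end libraries COL1A1 had a promoter peak in 1 and COL1A2 in 3. COL3A1, PDGFRB and the markers of other cell types had none there, so the check says little about single-end libraries. Nothing in the labels says that replicates came from separate cultures, so the spread between them may be technical. A weaker peak can mean fewer cells with the region open or less opening per cell, and these cannot be told apart in bulk cells.

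Both clusters were open in proliferating and senescent fibroblasts alike, at the gene starts and far from them. Of the 123 regions, 26 on chromosome 16 and 16 on chromosome 6 had a peak in every paired-end library. All 6 promoters, defined as regions within 1 kb of a start, were held by every Sen library and 4 of them by all 10 libraries. Their median merged width was 2094 bp against 541 bp for the other 117 regions. Of the 75 other regions held by every Sen library, 9 lay within 10 kb of a forkhead start, 38 at 10 to 100 kb and 28 farther out.

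The strongest region of both windows by the lowest −log10 q in Sen was not at a gene. It lay at chr16:86204532-86205305, 338.8 kb upstream of FOXF1 and near the outer edge of the window, and was also the most distant one held by all libraries. Its signal was 119 and 114 in Pro, 96.1, 96.0, 102 and 102 in Sen, 127 and 130 in siFOXF1/2 and 59.1 and 61.2 in JUN-family knockdown. The 4 groups did not overlap on this scale. On the second scale described below, Pro and JUN-family knockdown both overlapped Sen. Next by that order on chromosome 16 came regions 147.0, 122.6, 111.4 and 257.6 kb upstream of FOXF1. On chromosome 6 the order began with regions 75.7 kb downstream of FOXC1, 6.9 kb downstream of the FOXF2 start, 5.4 kb upstream of FOXC1, and 22.9 kb downstream and 24.6 kb upstream of FOXQ1.

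**Figure D1:**
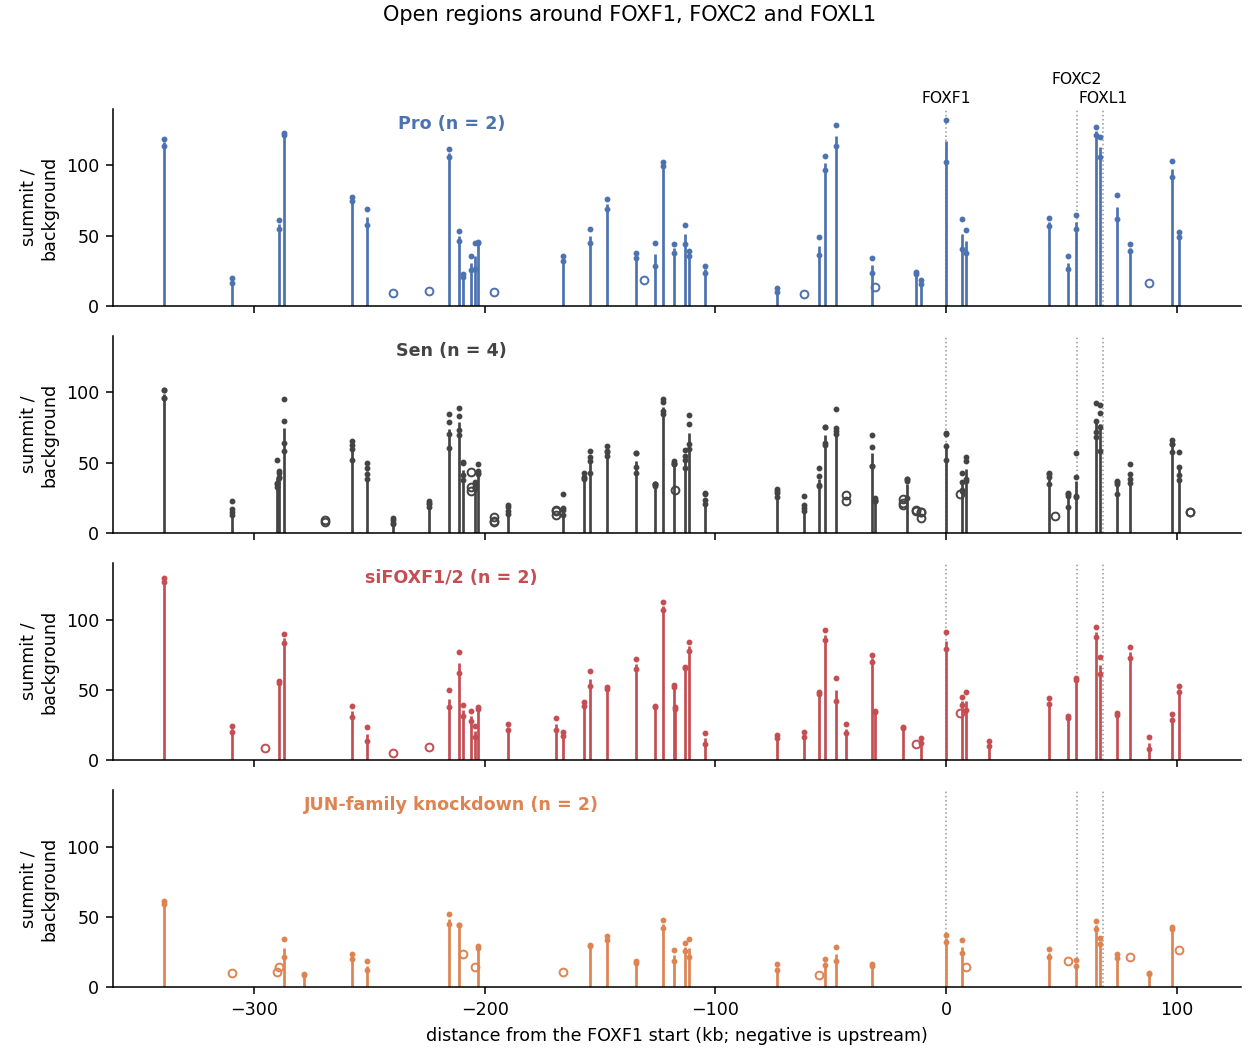
Summit signal (y, pileup divided by genome-wide background) of the 63 chromosome 16 regions against distance from the FOXF1 start (x, kb), 1 panel per paired-end group. Points are libraries, bars reach the group mean where every library of the group held a peak, open circles are peaks held by only some of the libraries, and dotted lines mark the FOXF1, FOXC2 and FOXL1 starts; the region 338.8 kb upstream is the first bar on the left.

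**Figure D2:**
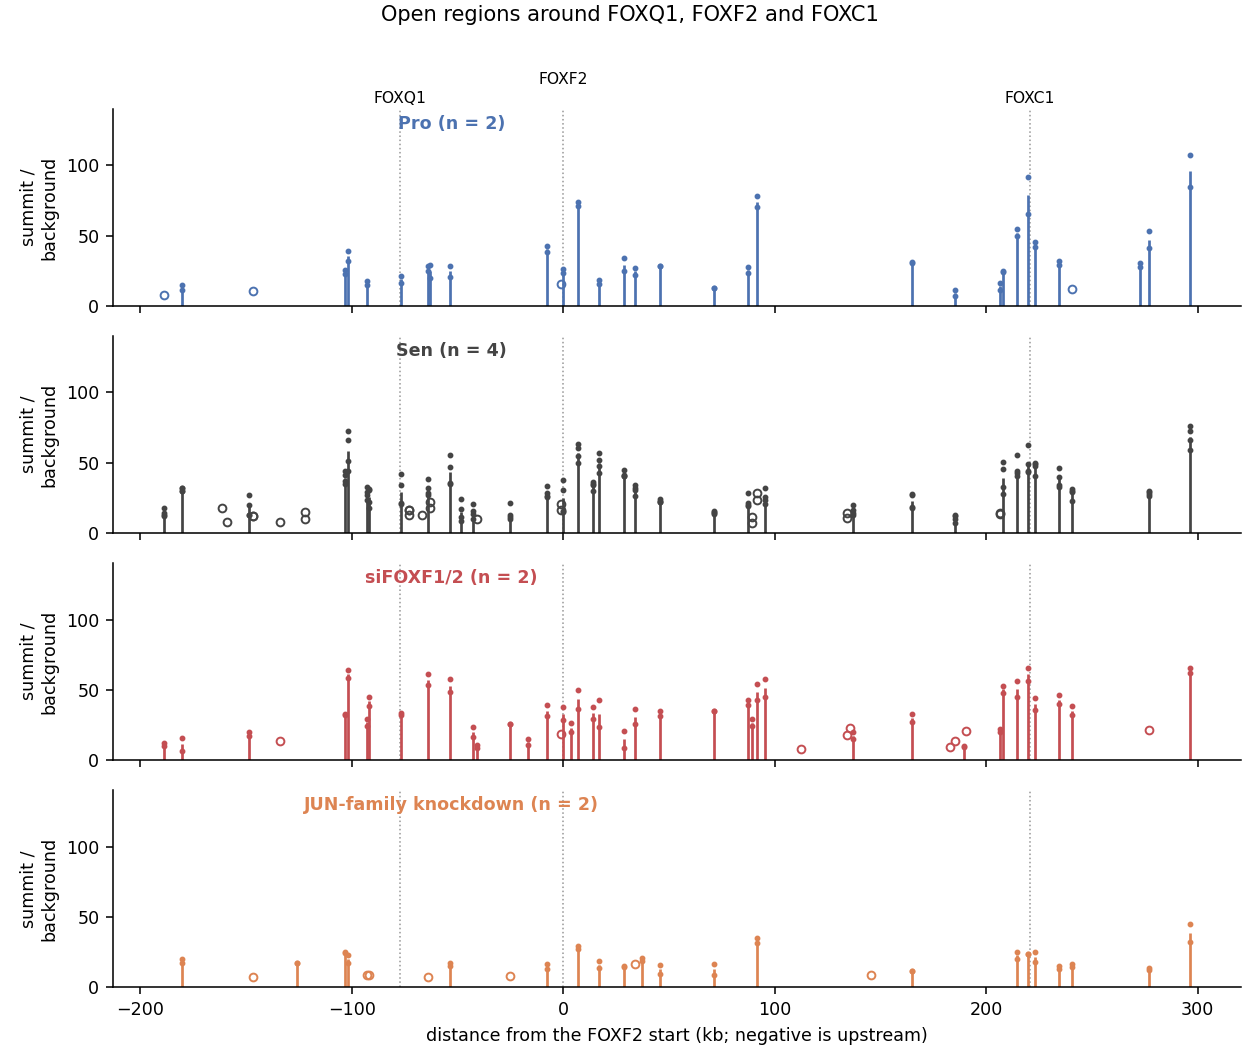
The same plot for the 60 chromosome 6 regions against distance from the FOXF2 start, with the FOXQ1, FOXF2 and FOXC1 starts marked. Signal is lower at the FOXF2 and FOXQ1 starts than at the FOXC1 start in Pro, and the JUN-family knockdown panel has no bar at the FOXQ1 or FOXF2 start.

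At the FOXF1 promoter, mean signal in senescent cells was 0.544 times that in proliferating cells. Signal was 103 and 132 in Pro, 71.0, 70.4, 61.8 and 52.2 in Sen, 78.8 and 90.8 in siFOXF1/2 and 32.1 and 37.3 in JUN-family knockdown. Neither Pro library overlapped Sen, and both siFOXF1/2 libraries lay above all 4 Sen libraries. The log2 ratio of Sen over Pro was −0.88 (SE 0.21 from the spread between libraries), that of siFOXF1/2 over Sen 0.41 (SE 0.15) and that of JUN-family knockdown over Sen −0.88 (SE 0.15). By Sen set they were −0.73 and −1.04, 0.26 and 0.57, and −1.03 and −0.72. The peaks covered 1934 to 2271 bp in Sen and 1340 to 1437 bp in JUN-family knockdown. The merged region reached from 1885 bp before the FOXF1 start to 515 bp after it, so most of it lay upstream.

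These ratios depend on the scale, because signal over background shifted across the genome. Over all regions kept in a comparison, meaning held by every library of both groups, the median log2 ratio was −0.17 for Sen over Pro, 0.27 for siFOXF1/2 over Sen and −0.79 for JUN-family knockdown over Sen. A second scale set each library to its median over the 37957 regions held by all 10 libraries, which brought these medians to 0.06, 0.03 and 0.02. On it the FOXF1 promoter stayed lower in Sen than in Pro without overlap (−0.65). Its siFOXF1/2 and JUN-family knockdown values then overlapped Sen, with log2 ratios of 0.18 and −0.07.

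FOXL1, the mesenchymal gene beyond FOXC2, was also lower in Sen than in Pro. Its promoter signal was 121 and 106 in Pro, 91.3, 85.6, 75.6 and 58.5 in Sen, 61.6 and 73.7 in siFOXF1/2 and 30.8 and 34.8 in JUN-family knockdown. Sen was below Pro without overlap (log2 −0.54, SE 0.17), and JUN-family knockdown was below Sen (−1.24, SE 0.17), on both scales. By Sen set the ratios were −0.35 and −0.76 over Pro, and −1.43 and −1.03 for JUN-family knockdown. The siFOXF1/2 libraries overlapped Sen (−0.20, SE 0.19), with −0.39 and 0.01 by set, so no direction can be given.

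FOXC2, between them, had 55.1 and 64.7 in Pro, 40.0, 57.2, 25.8 and 26.1 in Sen, 58.5 and 57.1 in siFOXF1/2 and 14.9 and 19.4 in JUN-family knockdown. The Sen libraries divided by peak-name set, with replicates 3 and 4 below both others. Sen overlapped Pro (log2 −0.68, SE 0.30), with −0.30 from Sen replicates 1 and 2 and −1.21 from replicates 3 and 4. JUN-family knockdown was below all Sen libraries (−1.12, SE 0.33) but overlapped them on the scale of shared regions (−0.30). By Sen set its ratio was −1.50 and −0.60. The siFOXF1/2 libraries overlapped Sen (0.63, and 0.25 and 1.15 by set).

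On chromosome 6, FOXC1 had the highest promoter signal. It was 65.4 and 92.0 in Pro, 49.3, 62.8, 44.2 and 43.6 in Sen, 56.6 and 65.4 in siFOXF1/2 and 23.7 and 23.4 in JUN-family knockdown. Sen was below Pro without overlap (log2 −0.66, SE 0.27), although the groups overlapped on the scale of shared regions (−0.43). By Sen set the ratio over Pro was −0.49 and −0.84. JUN-family knockdown was below Sen on both scales (−1.09, SE 0.12, and −0.26), with −1.25 and −0.90 by set. The siFOXF1/2 libraries overlapped Sen (0.29, and 0.12 and 0.48 by set).

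The FOXF2 promoter was much weaker than that of its paralogue FOXF1. It had 26.4 and 23.8 in Pro, 30.7, 38.0, 15.0 and 16.0 in Sen, 28.3 and 37.9 in siFOXF1/2 and no peak in either JUN-family knockdown library. Pro lay between the 2 sets of Sen libraries: the log2 ratio of Sen over Pro was −0.01 (SE 0.34) with all 4, 0.45 with Sen replicates 1 and 2 and −0.69 with replicates 3 and 4. The covered stretch was as uneven, from 158 to 1542 bp among the Sen libraries. No direction between Pro and Sen can be given for FOXF2. Nor can one be given for siFOXF1/2 over Sen, whose ratio was 0.41 pooled and −0.05 and 1.09 by Sen set.

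At the FOXQ1 promoter, Pro had the lowest mean of the 3 groups with a peak. Its signal was 16.6 and 21.7 in Pro, 42.0, 34, 21.3 and 20.7 in Sen, 32.1 and 33.2 in siFOXF1/2, and JUN-family knockdown had no peak. The Pro library at 21.7 overlapped Sen replicates 3 and 4, so the groups were not separate (log2 0.62, SE 0.32). They were separate on the scale of shared regions (0.84). With Sen replicates 3 and 4 alone, which belong to the other peak-name set than Pro, the ratio was 0.13, and with replicates 1 and 2 it was 0.99. The siFOXF1/2 ratio was 0.15 pooled, −0.22 and 0.64 by Sen set and −0.07 on the scale of shared regions, so it has no direction either.

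By count, 3 of 6 promoters, FOXF1, FOXL1 and FOXC1, were lower in Sen than in Pro without overlap, where 41.0% of all kept regions were, and 0 of 6 higher, where 22.4% were. After FOXF1/2 knockdown 0 of 6 were lower (8.77% of all kept regions) and 1, FOXF1, higher (46.1%). Of the 4 promoters kept in JUN-family knockdown, all 4 were lower (83.8%) and none higher (2.05%). On the scale of shared regions Sen against Pro had 2 lower, FOXF1 and FOXL1, and 1 higher, FOXQ1 (27.4% and 34.3% of all kept regions). On it siFOXF1/2 had 0 lower and 0 higher (19.2% and 24.0%), and JUN-family knockdown had 2 of 4 lower, FOXL1 and FOXC1, and 0 higher (24.4% and 25.6%). The same 4 Sen libraries serve as control in both knockdown comparisons, so these values stand side by side and were not set against each other.

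**Figure D3:**
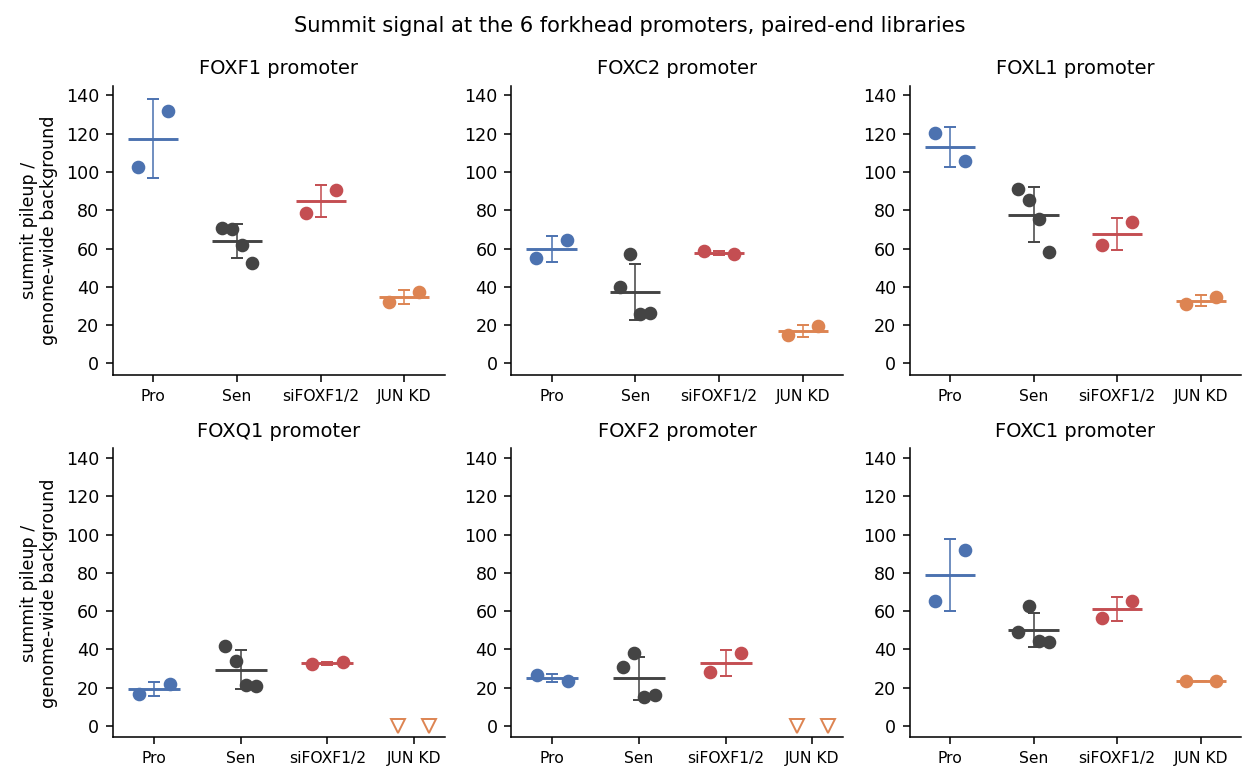
Summit signal (y, pileup divided by genome-wide background) at the 6 promoters in the 10 paired-end libraries, by group. Points are libraries, lines the mean and bars 1 SD; open triangles at 0 mark libraries without a peak, which are the 2 JUN-family knockdown libraries at FOXQ1 and FOXF2.

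Between Pro and Sen 12 member regions appeared and 1 disappeared, and 8 of the 12 lay on chromosome 6. Pro libraries held 79 and 82 peaks in the windows and Sen libraries 98, 98, 98 and 100, with no overlap (exact permutation test, two-sided, p = 0.133, the smallest that 2 against 4 libraries allow; Benjamini-Hochberg adjusted over the 5 comparisons 0.222). The whole lists grew more: the windows took 0.121 and 0.124% of the Pro lists but 0.0952 to 0.0993% of the Sen lists. With lists cut to equal length the sign turned, with 9.5 fewer peaks in Sen. A region was called opened when every Sen and no Pro library held a peak, and closed in the reverse case. By this rule 12 of the 81 regions held by all Sen libraries were opened, or 14.8% against 26.1% over the genome. Of the 70 regions held by both Pro libraries 1 was closed, or 1.43% against 3.96%. Leaving out either Pro library gave 2 closed. With lists of equal length 5 were opened and 5 closed, so opened regions no longer outnumbered closed ones.

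The 12 opened regions were 4 on chromosome 16 and 8 on chromosome 6, none at a promoter. The first by −log10 q on chromosome 16, at chr16:86386862-86387142 and 157.0 kb upstream of FOXF1, had 40.0, 38.4, 39.3 and 42.5 in Sen and no peak in Pro. To say how far a call stands from the caller's threshold, the lowest signal among the libraries that held a region was divided by the local detection level of those that lacked it. That level is the smallest signal listed at the highest local background seen there, in the libraries that held the region or in peaks within 5 kb in those that lacked it. The quotient, called the local ratio below, is not a bound on the fold, because the local background of a library without a peak is not listed. Near or below 1, an equal signal could have gone unlisted. The local ratio of this region was 2.09. FOXF1/2 knockdown left it at 41.3 and 38.4, within the Sen range, while JUN-family knockdown had no peak. The others on chromosome 16 lay 16.9, 189.7 and 290.0 kb upstream of FOXF1.

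On chromosome 6 the opened region with the highest −log10 q in its lowest Sen library lay 95.5 kb downstream of FOXF2 at chr6:1485590-1486412. It had 25.8, 32.4, 20.9 and 23.4 in Sen, none in Pro and 57.8 and 44.6 in siFOXF1/2. A region 14.2 kb downstream of FOXF2 at chr6:1404244-1404718 had 29.6, 35.2, 34.3 and 36.2 in Sen and none in Pro, a higher signal in each Sen library than the former. Their local ratios were 1.30 and 1.78. Next by −log10 q were regions 14.3 kb upstream of FOXQ1, 25.2 kb upstream of FOXF2 and 71.2 kb upstream of FOXQ1. Over the 12 opened regions the local ratio ran from 0.988 to 2.09, with 1 of at least 2, so most of these calls rest on signals not far above the threshold.

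The single closed region lay 52.1 kb downstream of FOXC1 at chr6:1662786-1663161, with 28.1 and 30.8 in Pro and no peak in any senescent paired-end library, knockdowns included. Its local ratio was 2.60.

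Among the 63 member regions kept between Pro and Sen, 24 were lower and 17 higher in Sen without overlap, or 38.1% against 41.0% and 27.0% against 22.4% for all regions. They were 17 lower and 7 higher of 38 on chromosome 16, and 7 lower and 10 higher of 25 on chromosome 6. With the shared-region scale 16 were lower and 22 higher, or 25.4% against 27.4% and 34.9% against 34.3%, with 14 and 8 on chromosome 16 and 2 and 14 on chromosome 6. A difference between the windows was not tested. The largest relative gain was 16.8 kb downstream of FOXF2, from 15.5 and 18.7 in Pro to 51.7, 56.8, 42.5 and 47.5 in Sen (log2 1.54). Higher in Sen as well were a region 73.3 kb upstream of FOXF1 (log2 1.31) and one 103.0 kb upstream of FOXQ1 (1.25). The largest relative loss was 5.9 kb downstream of FOXL1, from 78.6 and 61.7 to 36.5, 36.8, 34.7 and 27.7 (log2 −1.05). These regions were picked as the extremes of the list after their values were seen.

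A region 91.5 kb downstream of FOXF2 stood apart from every paired-end call. Both Pro libraries held it at 78.1 and 70.3, both siFOXF1/2 libraries at 54.3 and 42.6 and both JUN-family knockdown libraries at 31.5 and 35.3. Sen replicates 3 and 4 had 23.9 and 28.8, and Sen replicates 1 and 2 had no peak. Within the first peak-name set it would therefore be closed in Sen and opened again in siFOXF1/2, and within the second it was present throughout. It was chosen after its values were seen. In the single-end lists both senescent controls held an overlapping region, at 60.7 and 40.0. The p300/CBP libraries held it at 68.1 each, higher without overlap on both scales, and 1 p65 library held it at 54.2.

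After FOXF1/2 knockdown most of both clusters kept their peaks, promoters of FOXF1 and FOXF2 included, while a few distal regions lost theirs. siFOXF1/2 libraries held 105 and 101 peaks in the windows against 98 to 100 in Sen (exact permutation test, two-sided, p = 0.133, again the smallest possible, adjusted 0.222). The windows took 0.0970 and 0.0986% of the siFOXF1/2 lists and 0.0952 to 0.0993% of the Sen lists. With lists of equal length the sign turned, with 2.5 fewer, and 4 regions were closed and 2 opened. By the full lists, of the 81 regions held by all Sen libraries 3 were closed, or 3.70% against 8.10% over the genome. Of the 89 held by both siFOXF1/2 libraries 5 were opened, or 5.62% against 9.70%. Both shares lie below the genome-wide ones. Against Sen replicates 1 and 2 alone, the set of the same peak-name style, 6 were closed and 6 opened, and against replicates 3 and 4 alone 5 and 8. Leaving out Sen replicate 3, or either siFOXF1/2 library, gave 5 closed, and leaving out siFOXF1/2 replicate 2 gave 8 opened.

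None of the 3 closed regions had a peak in Pro, as for 76.7% of all regions closed by this knockdown. The first, at chr16:86526505-86527200, lay 16.9 kb upstream of FOXF1. Its signal was 38.6, 38.4, 24.9 and 37.4 in Sen, and neither Pro, siFOXF1/2 nor JUN-family knockdown had a peak. Its local ratio was 1.54, or 1.92 on the scale of shared regions.

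Farther out, at chr16:86253402-86254104 and 290.0 kb upstream of FOXF1, Sen had 34.8, 52.0, 36.0 and 33.1 and neither Pro nor siFOXF1/2 had a peak (local ratio 1.42). JUN-family knockdown held it in 1 library at 10.7. Its neighbours kept their peaks. The region 289.0 kb upstream, at chr16:86254654-86255143, had 44.4, 42.4, 39.9 and 39.0 in Sen and 56.6 and 55 in siFOXF1/2. That 286.8 kb upstream had 79.9, 95.2, 64.1 and 58.5 in Sen and 89.5 and 83.6 in siFOXF1/2. Both neighbours were also present in Pro, at 55.1 and 61.2 and at 122 and 123.

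The third closed region, 28.8 kb downstream of FOXQ1 at chr6:1341499-1341895, was weaker, with 17.2, 24.4, 8.50 and 11.3 in Sen. Its local ratio of 1.02 leaves room for no difference.

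Among the 5 opened regions, 1 lay inside the FOXF2 gene, at chr6:1393515-1394433 and 3.4 kb past the start. It had 26.4 and 19.7 in siFOXF1/2 and no peak in any other paired-end library. Local background there was up to 7.54 times genome-wide and the local ratio was 1.17, or 0.942 on the scale of shared regions, so an equal signal could have gone unlisted in Sen. The others were weaker, at 7.79 to 16.5, with local ratios of 1.23 to 2.096. They lay 18.7 kb downstream of FOXF1, 19.8 kb downstream of FOXL1, 16.7 kb upstream of FOXF2 and 30.9 kb upstream of FOXC1. The one downstream of FOXL1 was also opened in JUN-family knockdown and had a peak in 1 Pro library.

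**Figure D4:**
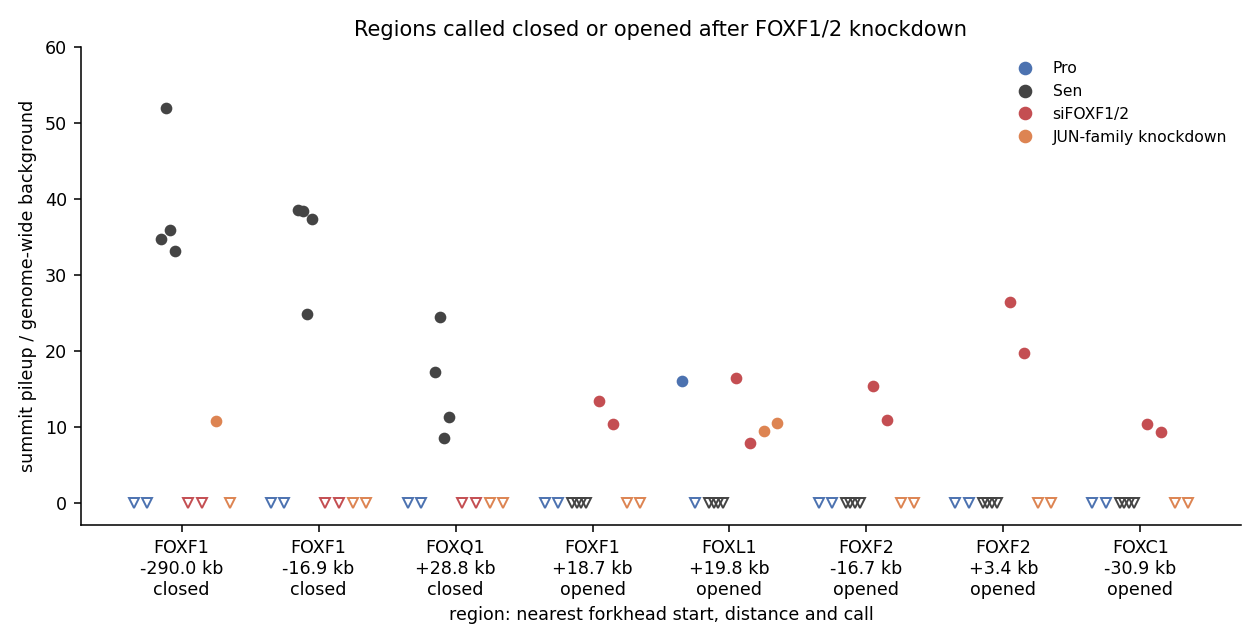
Summit signal (y, pileup divided by genome-wide background) at the 3 regions closed and the 5 opened in siFOXF1/2 against Sen. Points are paired-end libraries and open triangles at 0 libraries without a peak; the 2 regions upstream of FOXF1 lie between 24.9 and 52.0 in Sen and have no peak in Pro or siFOXF1/2.

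Of the 74 member regions kept in siFOXF1/2, 14 were lower than all Sen libraries, or 18.9% against 8.77% of all kept regions, and 22 higher, or 29.7% against 46.1%. On the scale of shared regions 23 were lower and 11 higher, or 31.1% against 19.2% and 14.9% against 24.0%. The median log2 ratio was 0.15 in the windows against 0.27 over all kept regions. These shares describe the members and carry no test. With Sen replicates 1 and 2 alone 27 were lower and 24 higher, and with replicates 3 and 4 alone 14 and 46. Without Sen replicate 2 the number higher was 36.

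The 14 lower regions were 10 on chromosome 16 and 4 on chromosome 6, and all 14 were lower on the scale of shared regions too. None was a promoter, and every one had a peak in both Pro libraries, as had 16 of the 22 higher and 31 of the 38 overlapping regions. The genome-wide share of such regions was not counted. The largest difference was 28.9 kb downstream of FOXF2 at chr6:1418961-1419579. Signal there was 24.7 and 33.9 in Pro, 40.3, 40.4, 41.5 and 45.2 in Sen, 8.80 and 20.8 in siFOXF1/2 and 14.3 and 15.4 in JUN-family knockdown, with a log2 ratio of siFOXF1/2 over Sen of −1.50.

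The region 103.0 kb upstream of FOXQ1, at chr6:1209051-1209634, came next at −1.43, from 32.4, 32.0, 29.8 and 29.6 in Sen to 6.89 and 16.1 in siFOXF1/2. Its level in Pro, 14.9 and 11.1, overlapped the latter. On chromosome 16 the largest was 251.2 kb upstream of FOXF1 at chr16:86291965-86292889, from 49.9, 38.4, 46.1 and 41.7 in Sen to 13.8 and 23.9 (−1.23). Here Pro was higher than Sen, at 57.4 and 69.3.

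Downstream of FOXL1, at 29.7 kb and chr16:86641864-86643264, Sen had 63.7, 66.0, 57.6 and 63.5 and siFOXF1/2 28.3 and 32.7 (−1.04). Near FOXF1 itself, the region 47.6 kb upstream went from 88.5, 74.4, 72.9 and 70.1 to 42.1 and 58.1 (−0.61). Beyond the end of FOXF2, by 1124 bp, a region of 63.4, 60.4, 50.0 and 54.6 in Sen had 36.7 and 49.8 in siFOXF1/2 (−0.40). The higher siFOXF1/2 library lay only just below the lowest Sen library there.

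The 22 higher regions were led by one 71.2 kb downstream of FOXF2 at chr6:1461219-1462190, from 14.1, 15.6, 13.4 and 15.2 in Sen to 35.2 and 35.3 in siFOXF1/2 (log2 1.27). The Pro libraries had 12.6 and 13.1. The region 95.5 kb downstream followed (1.00), and one 87.5 kb downstream, with 21.4, 28.8, 19.0 and 19.9 against 42.9 and 39.5 (0.89). These neighbours lie in the desert between FOXF2 and FOXC1. On chromosome 16 the largest was 11.8 kb downstream of FOXL1, from 42.0, 48.8, 35.3 and 38.6 to 80.7 and 72.7 (0.90). Of the 22, 11 were also higher on the scale of shared regions.

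**Figure D5:**
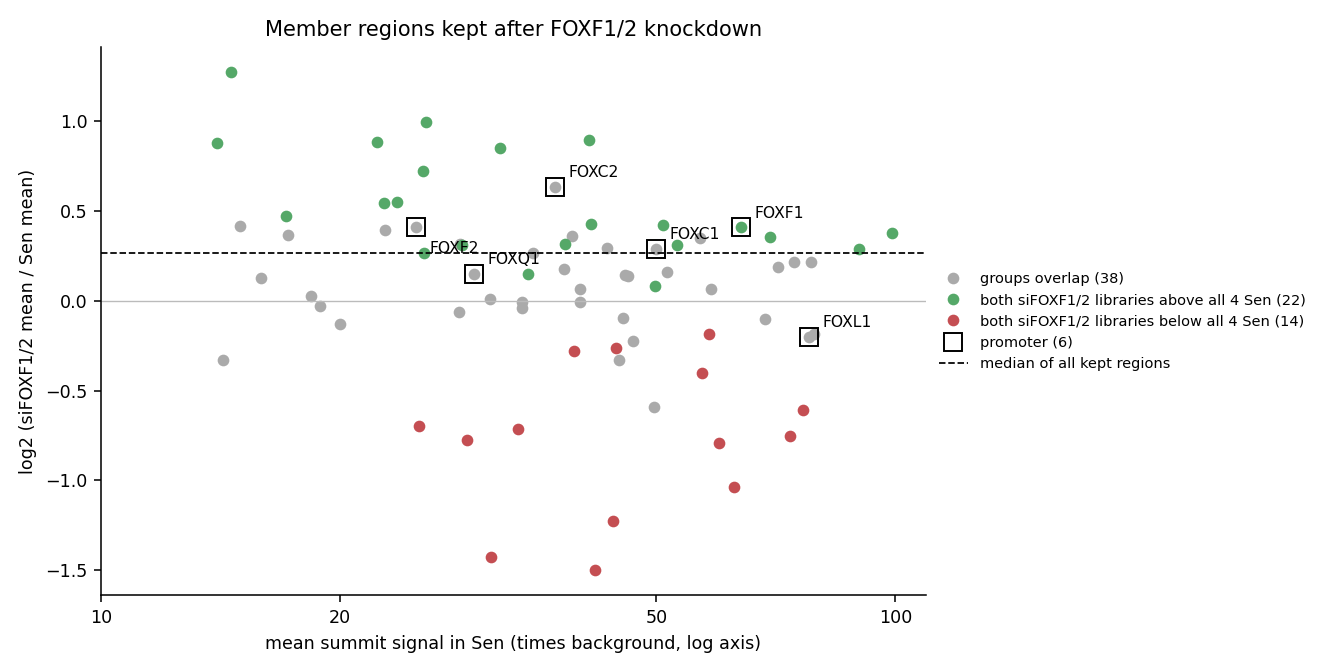
Log2 ratio of siFOXF1/2 over Sen (y) against the mean signal in Sen (x, log axis) for the 74 kept member regions. Red points are the 14 regions lower and green the 22 higher than all 4 Sen libraries, squares mark the 6 promoters, of which none is red, and the dashed line is the median of all kept regions, 0.27.

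JUN-family knockdown lists were shorter over the whole genome and held fewer peaks in both clusters. JUN proteins are subunits of AP-1, a factor that opens many fibroblast enhancers. The 2 libraries held 65 and 62 peaks in the windows against 98 to 100 in Sen (exact permutation test, two-sided, p = 0.133, the smallest possible, adjusted 0.222). The whole lists shrank more: the windows took 0.104 and 0.103% of the knockdown lists against 0.0952 to 0.0993% of the Sen lists. With lists of equal length the difference was 4 fewer peaks (exact permutation p = 0.4), and 7 regions were closed and 5 opened. By the full lists, of the 81 regions held by all Sen libraries 21 were closed, or 25.9% against 31.6% over the genome. These were 9 of 46 on chromosome 16 and 12 of 35 on chromosome 6, the promoters of FOXQ1 and FOXF2 among them. Of the 49 held by both knockdown libraries 4 were opened, or 8.16% against 5.91%. Against Sen replicates 3 and 4 alone, the same peak-name set, 24 were closed and 4 opened.

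At the FOXQ1 promoter, chr6:1311325-1313431, the local ratio was 1.48, or 0.934 on the scale of shared regions, and at the FOXF2 promoter it was 0.841, or 0.522. An equal signal could thus have gone unlisted at the FOXF2 start on either scale and at the FOXQ1 start on the second. The region 157.0 kb upstream of FOXF1, described above, had 2.21. Upstream of FOXC1, at 12.0 kb and chr6:1597849-1598637, a region had 24.1 and 24.8 in Pro, 45.8, 50.4, 27.8 and 32.7 in Sen, 47.8 and 53.0 in siFOXF1/2 and no peak after JUN-family knockdown, with the largest local ratio of the 21 regions, 2.66. The 14.2 and 95.5 kb regions downstream of FOXF2 were closed too (1.86 and 2.105). So were regions 224.0, 126.2 and 104.3 kb upstream of FOXF1 and 87.5 kb downstream of FOXF2. Over the 21 the local ratios ran from 0.841 to 2.66, with 5 of at least 2. On the scale of shared regions these 5 had 1.27 to 1.71, and the region 14.2 kb downstream of FOXF2 had 1.08. How far these calls stand from the threshold thus depends on the scale.

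The 12 senescence-opened regions can be followed across both knockdowns, with the same Sen controls in each. They were chosen for peaks in every Sen library. siFOXF1/2 held 9 in both libraries, 0 in 1 and 3 in none, or 75.0%, 0% and 25.0%, where the shares of all senescence-opened regions were 61.6%, 14.6% and 23.8%. JUN-family knockdown held 0 in both libraries against 14.6%, 9 in none, or 75.0% against 73.8%, and the other 3 in 1 of the 2, or 25.0% against 11.6%.

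Opened after JUN-family knockdown were regions 37.0 kb downstream of FOXF2, at 18.8 and 20.9, and 48.4 kb upstream of FOXQ1, at 17.2 and 17.4. No other paired-end library had a peak at either, and the local ratios were 2.14 and 2.53. The remaining 2, 278.5 kb upstream of FOXF1 and 19.8 kb downstream of FOXL1, were weaker, at 8.44 to 10.4.

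Of the 44 member regions kept after JUN-family knockdown 42 were lower than all Sen libraries, or 95.5% against 83.8%, and 0 higher against 2.05%. The median log2 ratio was −1.003 in the windows and −0.79 over all kept regions. On the scale of shared regions 19 were lower and 5 higher, or 43.2% against 24.4% and 11.4% against 25.6%. The largest difference lay 52.3 kb upstream of FOXF1, from 75.8, 75.6, 63.8 and 62.7 in Sen to 19.8 and 15.9 (log2 −1.96, and −1.13 on the scale of shared regions). Next was the region 32.3 kb upstream, from 61.3, 70.0, 47.8 and 47.9 to 16.9 and 14.9 (−1.84). Its Pro level was 34.4 and 23.8, between the others when divided by background. On the scale of shared regions, Pro overlapped JUN-family knockdown there. Both regions were chosen as the extremes of the list.

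The single-end libraries saw fewer of the members. Senescent controls held 48 and 68 peaks in the windows, siRNA against the acetyltransferases p300/CBP left 57 and 32, and siRNA against p65 43 and 16. Of the p300/CBP numbers 1 lay between the controls and the other below them, and both p65 numbers were below the controls. The exact two-sided permutation test gave p = 0.667 for p300/CBP and 0.333 for p65, the smallest that 2 against 2 libraries allow (adjusted 0.667 and 0.417). With lists of equal length p300/CBP had 7 fewer peaks than the controls, and for p65 the sign turned, with 5.5 more. The windows took 0.0879 and 0.101% of the control lists, 0.0801 and 0.0687% of the p300/CBP lists and 0.0977 and 0.0895% of the p65 lists. Replicates also shared less of their covered length in the windows, with a Jaccard index of 0.493 in the controls, 0.381 in p300/CBP and 0.267 in p65, against 0.637 to 0.765 among paired-end Sen libraries. No promoter had a peak in all libraries of a single-end comparison, and those of FOXC2 and FOXF2 had none in any single-end library.

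The FOXF1 start was the promoter with peaks in both single-end controls, at 65.1 and 40.0, in a region at chr16:86543788-86543959 just upstream of the start. Neither the p300/CBP nor the p65 libraries held it. The local ratio was 0.813 for the p300/CBP libraries and 0.649 for the p65 libraries, so an equal signal could have gone unlisted. In the paired-end lists the same promoter was held by every library.

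After p300/CBP knockdown 10 of 42 member regions held by both controls were closed, or 23.8% against 17.4% over the genome. Of 28 held by both knockdown libraries 1 was opened, or 3.57% against 13.1%. Single libraries set these counts: 25 were closed without control replicate 1 and 19 without p300/CBP replicate 1, and 15 were opened without p300/CBP replicate 2. The largest local ratio, 1.61, was at chr6:1397200-1397413, past the end of FOXF2, with 69.4 and 54.7 in the controls and no peak in the knockdown. Closed too were regions 287.2, 258.5, 215.7 and 203.1 kb upstream of FOXF1 and 103.1, 69.8, 26.1 and 15.6 kb upstream of FOXQ1, with local ratios of 0.927 to 1.39. The opened one lay 20.3 kb downstream of FOXC1, at 45.4 and 44.3. Of 22 kept regions 5 were lower and 4 higher, or 22.7% and 18.2% against 5.52% and 16.1% of all kept regions. Scaled on shared regions, 8 were lower and 3 higher, or 36.4% against 18.7% and 13.6% against 26.6%. Without control replicate 2 the number lower was 14, and without p300/CBP replicate 1 it was 8. Without control replicate 1 the number higher was 17, and without p300/CBP replicate 2 it was 11.

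Some of these sites lay in regions that were lower after FOXF1/2 knockdown, in libraries that have no control in common. Of 9 paired-end member regions that overlapped a p300/CBP-closed one and were kept in siFOXF1/2, 6 were lower there. They lay 257.6, 215.4 and 202.7 kb upstream of FOXF1, 103.0 and 26.1 kb upstream of FOXQ1 and past the end of FOXF2. The local ratio of the p300/CBP call was 1.61 past the end of FOXF2. At the others it was 0.927 to 1.06, where an equal signal could have gone unlisted. The 6 of 9 make 66.7%, against 23.5% of all regions that overlapped a p300/CBP-closed one and were kept in siFOXF1/2. Scaled on shared regions, it was 7 of 9, or 77.8% against 37.9%. The regions 257.6 and 202.7 kb upstream of FOXF1 each overlapped a second single-end region that did have a p300/CBP peak, of 49.2 and 53.0. Over regions with no p300/CBP peak at all, 4 of 7 were lower, or 57.1% against 26.2%. Of 21 that overlapped a p300/CBP-kept region, the one 257.6 kb upstream included, 4 were lower, or 19.0% against 6.47% of all such regions, and 6, or 28.6% against 17.2%, on the scale of shared regions. The remaining 3 of the 9 included the FOXF1 promoter, which was higher. These shares rest on few regions and carry no test.

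After p65 knockdown 11 of the 42 were closed, or 26.2% against 29.6%, and 1 of 15 was opened, or 6.67% against 1.53%. Without control replicate 1 the number closed was 29, and without p65 replicate 1 it was 28. With lists of equal length 1 was closed and 2 opened. The closed regions with the highest −log10 q lay 19.0, 287.2 and 55.1 kb upstream of FOXF1, 12.1 kb downstream of FOXL1 and at the FOXF1 start on chromosome 16. On chromosome 6 they lay 12.2 kb upstream of FOXC1, 87.6 and 71.5 kb downstream of FOXF2 and 69.8 and 26.1 kb upstream of FOXQ1. Over the 11 the local ratios were 0.513 to 1.00, with 1 of at least 1, so an equal signal could have gone unlisted at nearly all of them. The opened region, at chr6:1419139-1419346 and 29.1 kb downstream of FOXF2, had 51.0 and 51.3 and no peak in the controls or after p300/CBP knockdown (local ratio 1.47). It lies within the paired-end region 28.9 kb downstream of FOXF2 that had the lowest ratio among regions kept after FOXF1/2 knockdown. Every paired-end Pro and Sen library held a peak in that region. Senescent controls of that layout thus had it open without p65 knockdown. Of 13 kept regions 2 were lower and 2 higher, or 15.4% each against 8.84% and 10.6%, and 1 and 2 on the scale of shared regions, against 17.2% and 22.7%. Without control replicate 2 the number lower was 9, and without control replicate 1 the number higher was 9. Without p65 replicate 2 they were 7 and 6, and without p65 replicate 1 the number higher was 4. Of 9 paired-end member regions that overlapped a p65-closed one and were kept in siFOXF1/2, 1 was lower and 6 higher (11.1% and 66.7%, against 7.07% and 50.4% of all such regions). With the shared-region scale 1 was lower and 3 higher (11.1% and 33.3%, against 16.5% and 31.3%).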

How the data were processed

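Peak lists of 16 ATAC-seq libraries were analysed. Bowtie2 2.3.4.1, SAMtools 1.9, deepTools 3.1.1, MACS2 2.1.1 and the build hg19 are named, without role or order, in the submitters' processing notes. Caller settings, any shift of reads for the transposase and the treatment of duplicates were not given in the sources used, apart from a tag for duplicate removal in single-end peak names. Each deposited list holds, per peak, a fold ratio of summit to local background, −log10 p-values and q-values, a score and a summit offset, computed by the authors per library and not on pooled replicates. The authors' score entered no comparison. Fold and q-values described and ranked peaks.

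Peaks on chromosomes 1 to 22 and X that overlapped by at least 1 bp were merged per layout. Summit pileups were solved from fold and p within 0.002 in −log10 p, widened in proportion above 10, and found for 100% of peaks. The 1st percentile of local background was the genome-wide background. Lower and higher mean that all libraries of one group lie beyond all of the other, and ratios are of group means. The local ratio, defined with the results and chosen after the data were seen, leaves out the caller's minimum peak length and takes the lowest listed p of a library as its threshold.

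Starts of FOXF1 and FOXF2 came with the choice of windows. Those of the other members and of marker genes were entered from known hg19 annotation and checked against RefSeq GRCh38.p14, where spacing of member starts differed by at most 422 bp and marker gene lengths by at most 339 bp. Spacing cannot show an offset common to all starts of a window. Distances run from the start to the nearest edge of a region. Named regions are, per window, comparison and direction, the 5 with the highest lowest −log10 q, the 5 strongest in Sen and the most distant one held by all. Others are said to have been chosen after their values were seen, or are extremes of kept regions. The members, lists and windows were chosen with earlier results of these data known.

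Peak numbers were compared by exact two-sided permutation over libraries. No model across regions was fitted, since lists hold no counts below the caller's threshold. Alternatives were −log10 q of at least 5 or 10, lists of equal length, 50% coverage of a region, 500 bp summit windows, the scale of shared regions, subsets of the Sen libraries, leaving out each library and a replicate block. Scripts were tested on simulated data, in Python 3.11.15 with NumPy 2.4.6, SciPy 1.17.1 and pandas 2.3.3.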

Additional observations from a re-analysis of the deposited data

Results flagged for a closer look

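In 36 sets of 4 Sen values, 1 library stood far from the other 3 in 4 cases, and chance alone flags about 1 in 20 such sets. Sen replicate 4 held 100 peaks in the 2 windows where the other 3 each held 98. At the region 290.0 kb upstream of FOXF1, lost after FOXF1/2 knockdown, Sen replicate 2 had a signal of 52.0 against 33.1 to 36.0. Sen replicate 3 had 24.9 against 37.4 to 38.6 at the region 16.9 kb upstream of FOXF1, lost as well. It had 33.7 against 34.7 to 34.8 at the region 126.2 kb upstream of FOXF1.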

How the results depend on the processing

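Peak numbers kept their direction in 49 of 52 alternative values, and the exceptions follow. Promoter ratios of siFOXF1/2 over Sen changed sign for FOXQ1 (0.15 to −0.07 on the scale of shared regions and −0.22 with Sen replicates 1 and 2), FOXF2 (0.41 to −0.05 with Sen replicates 1 and 2) and FOXL1 (−0.20 to 0.01 with Sen replicates 3 and 4), and that of Sen over Pro for FOXF2 (−0.01 to 0.20 on the scale of shared regions and 0.45 with Sen replicates 1 and 2, and with 1 library left out in 3 cases). None of these 4 had groups apart. With lists cut to the shortest of a comparison, the difference in peak number became −9.5 for Sen against Pro, −2.5 for siFOXF1/2 and 5.5 for p65. Closed and opened counts then became 5 and 5 for Sen against Pro, opened 2 for siFOXF1/2, closed 7 for JUN-family knockdown, opened 2 for p300/CBP, and closed 1 and opened 2 for p65. Such lists hold fewer peaks by construction. At −log10 q of at least 10, opened counts were 2 for siFOXF1/2 and 2 for JUN-family knockdown, closed and opened 3 and 3 for p300/CBP, and 5 and 0 for p65. Requiring 50% coverage gave 2 closed for Sen against Pro, 3 opened for siFOXF1/2 and 36 closed for JUN-family knockdown.

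With Sen replicates 1 and 2 only, 3 regions were closed for Sen against Pro and 6 for siFOXF1/2, and the median promoter log2 ratio of Sen over Pro was −0.33. With Sen replicates 3 and 4 only, siFOXF1/2 had 5 closed and 8 opened, and the median promoter ratio for JUN-family knockdown was −0.81. On the scale of shared regions that median was −0.28 for JUN-family knockdown and −0.37 for Sen over Pro.

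Counts of regions lower and higher were added after seeing the data, with their alternatives. On the scale of shared regions they were 23 and 11 for siFOXF1/2 and 19 and 5 for JUN-family knockdown, with 8 lower for p300/CBP and 1 lower for p65. With Sen replicates 1 and 2 only, 27 were lower for siFOXF1/2. With replicates 3 and 4 only, 37 were lower for Sen against Pro, 46 higher for siFOXF1/2 and 1 higher for JUN-family knockdown.

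Leaving out 1 library at a time gave 1 to 2 closed for Sen against Pro, 3 to 5 closed and 5 to 8 opened for siFOXF1/2, 11 to 25 closed and 2 to 15 opened for p300/CBP, and 12 to 29 closed and 1 to 4 opened for p65. Higher counts ran from 22 to 36 for siFOXF1/2 and 0 to 1 for JUN-family knockdown. Lower and higher ran from 5 to 14 and 4 to 17 for p300/CBP, and both from 2 to 9 for p65. The cause of these shifts was not tested.

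Replicate numbers name libraries and do not pair them, since nothing in the labels ties same-numbered libraries. With the replicate number as a block, the mean difference in peak number was 17.5 for Sen against Pro, 5 for siFOXF1/2, −34.5 for JUN-family knockdown, −13.5 for p300/CBP and −28.5 for p65, each over 2 pairs (exact sign-flip permutation p of 0.5, and 1 for p300/CBP). It changed no direction. Single-end promoter signal has no value under the plan, because no promoter was held by all libraries of a single-end comparison.

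Depth limits the single-end lists most: a signal under 14.7 to 25.7 times background could not be listed, and local ratios of closed regions there were 0.513 to 1.61. Absence of a peak is thus not absence of opening.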
